A study of Mus musculus with 16 samples.

Results

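The genes described here are 28 genes of the SREBP2 pathway and of cholesterol synthesis, chosen by name from a list of the pathway's genes, among 23420 genes counted in the livers of 16 mice. By role they were 8 genes from acetyl-CoA to the isoprenyl diphosphates (Acat2, Aacs, Hmgcs1, Mvk, Pmvk, Mvd, Idi1 and Fdps), 3 genes from there to lanosterol (Fdft1, Sqle and Lss), 8 genes from lanosterol to cholesterol (Cyp51, Tm7sf2, Lbr, Msmo1, Nsdhl, Ebp, Sc5d and Dhcr7), 3 genes of the isoprenoid branch (Ggps1, Nus1 and Dhdds), 4 genes of SREBP2 and its control (Srebf2, Scap, Insig1 and Insig2) and 2 genes of sterol transport inside the cell (Stard4 and Tmem97). All 28 were found, 27 under their present symbol and Msmo1 under the older symbol Sc4mol. The mice were male C57BL/6J wild-type animals, 4 per group, on a high-fat diet of 45% fat (HFD) or on that diet with the synthetic retinoid fenretinide added at 0.04% (FEN-HFD), and each diet was given for 20 weeks (long-term) or 7 days (short-term) to separate mice. The mouse numbers were 25, 28, 33 and 45 for HFD and 21, 22, 24 and 29 for FEN-HFD at 20 weeks, and 142, 143, 144 and 146 for HFD and 61, 62, 65 and 66 for FEN-HFD at 7 days. All groups ate the HFD, and no lean mice on another diet are analysed here.

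Cholesterol is built in the liver from acetyl-CoA through mevalonate, the isoprenyl diphosphates, squalene and lanosterol. SREBP2, the product of Srebf2, is held in the endoplasmic reticulum in a complex of Scap with the Insig proteins when sterols are plentiful. When sterols run low, Scap escorts SREBP2 to the Golgi, where it is cleaved, and the released part enters the nucleus and switches on the synthesis genes, usually together with the factors NF-Y and Sp1. Insig1 is itself switched on by this route, while the liver keeps a transcript of Insig2 that is under the control of insulin. The abundance of a transcript does not measure the cleavage of SREBP2 or the flux through the pathway.

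Total counts assigned to genes ran from 19218230 to 32546829 per library. The library of mouse 29 on FEN-HFD was unlike the rest, with 53.1% of its counts on Rn45s, the ribosomal RNA precursor, against 0.466% to 1.46% in the other 15 libraries, and 4.36% against 0.00173% to 0.0499% on Lars2. Each comparison that uses it was also made without it. The 8 hepatocyte markers, among them Alb, Apoa1 and Ttr, were counted in every library, and their summed level ran from 71045 to 82263 CPM on the HFD and from 53692 to 69908 CPM on FEN-HFD at 20 weeks, with no overlap. A sum rests on the most abundant markers. By edgeR 0 of the 8 were called between the diets at 20 weeks, 2 were higher and 3 lower at an unadjusted p under 0.05, and 3 of 8 estimates were below 0 (median log2 fold change 0.12). At 7 days the hepatocyte sums were 68875 to 87325 CPM and 62281 to 71014 CPM. The 8 macrophage markers summed to 394 to 461 CPM on the HFD and 499 to 1191 CPM on FEN-HFD at 20 weeks, the highest in mouse 29. None of the 45 markers of 6 liver cell types was at 0 in a whole group. The part of these differences in the results below was not tested, and in whole liver fewer cells of a type and less RNA per cell cannot be told apart.

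The promoters of 5 members are shown because 3 of them (Hmgcs1, Acat2 and Insig2) passed the test for a difference between times, Mvd had the largest fold estimate for fenretinide at 20 weeks, and Mvk had an estimate near 0 in that comparison. The windows run from 250 bases before to 50 bases from the RefSeq start on, in the direction of the gene, in the GRCm38.p6 build, at chr13:119690101-119690400 on the plus strand for Hmgcs1, chr17:12960676-12960975 on the minus strand for Acat2, chr1:121332540-121332839 on the minus strand for Insig2 (the outermost of its 3 starts), chr8:122443373-122443672 on the minus strand for Mvd and chr5:114444019-114444318 on the plus strand for Mvk. Capitals mark matches, on either strand, to 3 motifs. The first is a form of the sterol regulatory element, to which SREBP binds, spelled TCACNCCAC. The next is the NF-Y box, spelled CCAAT. The last is the GC box, to which Sp1 binds, spelled GGGCGG.
Hmgcs1: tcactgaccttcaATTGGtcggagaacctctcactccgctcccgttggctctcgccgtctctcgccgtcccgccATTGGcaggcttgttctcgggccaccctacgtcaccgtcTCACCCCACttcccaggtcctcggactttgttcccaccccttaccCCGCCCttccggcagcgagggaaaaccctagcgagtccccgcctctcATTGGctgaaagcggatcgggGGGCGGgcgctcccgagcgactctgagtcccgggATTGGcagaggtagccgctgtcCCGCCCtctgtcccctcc
Acat2: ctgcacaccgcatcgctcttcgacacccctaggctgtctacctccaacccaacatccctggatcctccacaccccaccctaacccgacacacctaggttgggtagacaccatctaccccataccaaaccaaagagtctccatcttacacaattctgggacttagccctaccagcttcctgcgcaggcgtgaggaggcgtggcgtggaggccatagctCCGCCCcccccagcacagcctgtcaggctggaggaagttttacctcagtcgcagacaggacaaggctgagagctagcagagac
Insig2: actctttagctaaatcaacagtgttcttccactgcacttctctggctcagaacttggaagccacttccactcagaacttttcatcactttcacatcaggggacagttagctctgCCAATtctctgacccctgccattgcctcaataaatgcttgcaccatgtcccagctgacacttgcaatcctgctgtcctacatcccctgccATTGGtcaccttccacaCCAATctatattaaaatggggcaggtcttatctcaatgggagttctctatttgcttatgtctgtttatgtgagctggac
Mvd: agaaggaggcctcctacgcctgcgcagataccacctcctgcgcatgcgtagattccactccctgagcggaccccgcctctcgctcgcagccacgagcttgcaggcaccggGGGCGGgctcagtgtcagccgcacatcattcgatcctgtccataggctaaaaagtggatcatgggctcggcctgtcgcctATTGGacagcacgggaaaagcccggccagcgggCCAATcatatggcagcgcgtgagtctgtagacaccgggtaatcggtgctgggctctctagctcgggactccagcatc
Mvk: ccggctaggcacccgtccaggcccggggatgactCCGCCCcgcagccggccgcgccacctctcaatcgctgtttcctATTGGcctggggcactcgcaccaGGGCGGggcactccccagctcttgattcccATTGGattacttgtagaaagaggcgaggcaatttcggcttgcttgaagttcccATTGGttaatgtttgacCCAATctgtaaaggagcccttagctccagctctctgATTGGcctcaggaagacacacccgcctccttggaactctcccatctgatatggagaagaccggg

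In these 5 windows no match overlapped a match to another motif. The sterol regulatory element was matched once, 137 bases before the start of Hmgcs1. A window was found for 24 of the 28 genes, and no window is shown for Fdps, Fdft1, Sqle and Stard4. Hmgcs1 was the 1 gene of 24 (4.17%) with TCACNCCAC, which 1.44% of all 27025 genes with a window held. The NF-Y box was found in 21 of 24 genes (87.5%) against 41.1% of all genes, and 14 of the 24 (58.3%) had at least 2 boxes in 1 window against 13.3%. The GC box was found in 21 of 24 (87.5%) against 38.2%. Mvk held 5 NF-Y boxes, the most of any member, and its window also holds the start of Mmab on the other strand. Acat2, Aacs and Scap had no NF-Y box in their windows, and Aacs had none of the 3 motifs. A match is a description of letters, and a window without one says nothing about binding elsewhere.

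**Figure D1:**
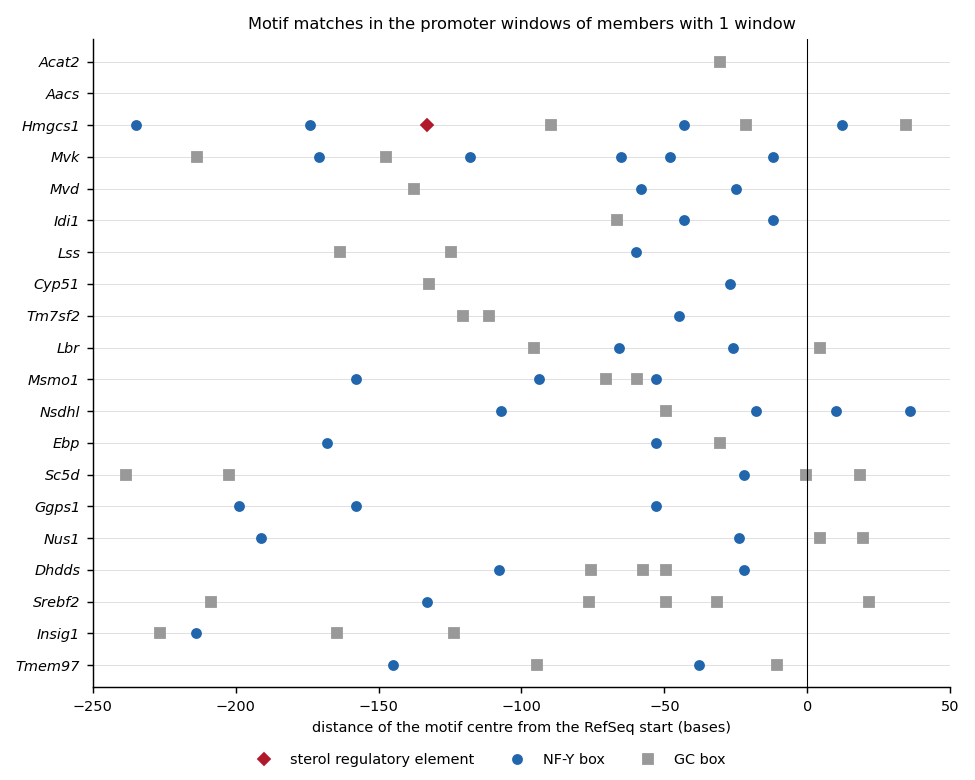
Positions of the 3 motifs in the promoter windows of the 20 members with a single RefSeq window, as the distance of the motif centre from the start in bases (0 is the start). Diamonds are TCACNCCAC, circles NF-Y boxes and squares GC boxes, and the diamond appears in Hmgcs1 alone, while 18 of the 20 rows hold at least 1 circle.

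Levels are in CPM, a gene's counts per 1000000 counts of its library after TMM scaling over the 16 libraries, and between genes they are compared per kilobase of exon. By the mean of all 16 mice Insig1 was the most abundant of the 28 at 91.4 CPM per kb, followed by Ebp, the sterol isomerase, at 87.7 CPM per kb and Sc5d, which puts a double bond into the sterol ring, at 75.4 CPM per kb. Ggps1, which makes geranylgeranyl diphosphate, was the least abundant at 2.48 CPM per kb, next to Srebf2 itself at 2.89 CPM per kb. The order moved between groups. In both FEN-HFD groups Ebp was above Insig1, at 94.3 against 74.7 CPM per kb at 20 weeks and 80.8 against 68.2 CPM per kb at 7 days. Fdps had 105 CPM per kb on the HFD at 20 weeks and 27.8 CPM per kb on the HFD at 7 days, while Tm7sf2, a sterol reductase, had 43.4 and 34.7 CPM per kb.

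**Figure D2:**
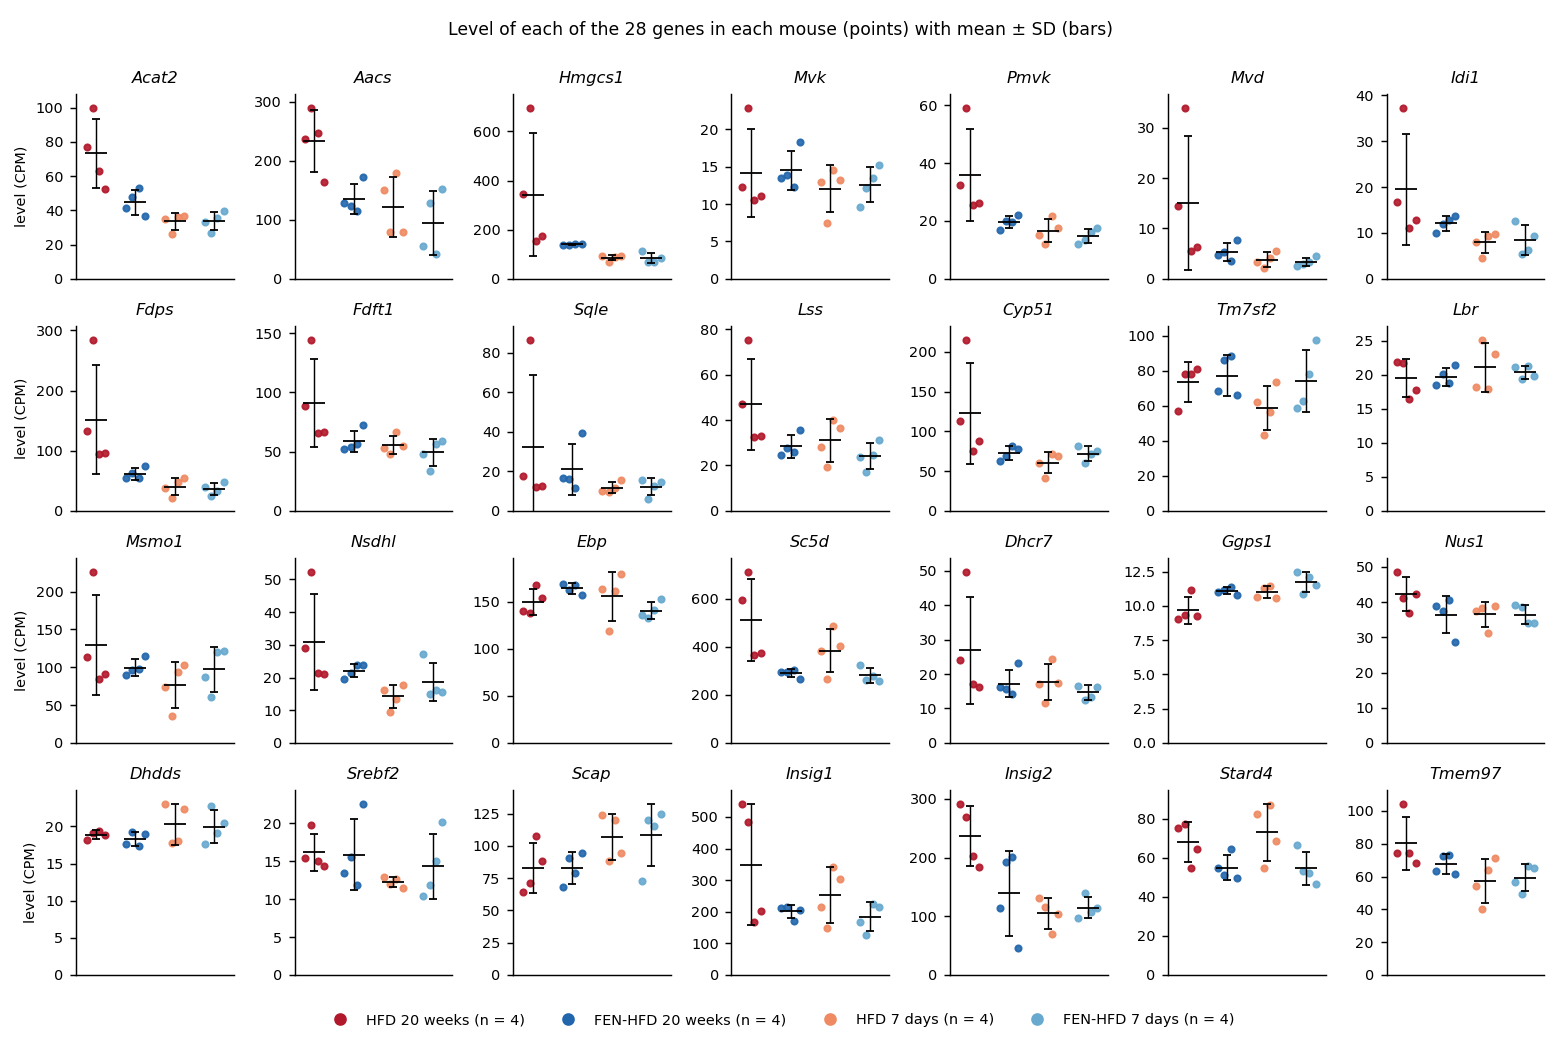
Level in CPM (y axis, from 0) of each of the 28 genes in each of the 16 mice, with a panel for each gene and the mean and SD of each group of 4 in black; the lower end of the Sqle bar for HFD at 20 weeks lies below 0 and is not drawn. For Hmgcs1 the 4 FEN-HFD mice at 20 weeks sit between 136 and 143 CPM, below the 4 HFD mice at 156 to 696 CPM.

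The first comparison asked how the genes differed between FEN-HFD and HFD livers after 20 weeks. No member passed edgeR's quasi-likelihood test at an adjusted p under 0.05 in either direction, where 1.09% of the 13010 genes tested were called lower and 0.769% higher. Estimates were below 0 for 23 of the 28 members, with a median log2 fold change of -0.65 beside 0.01 for all genes tested. At an unadjusted p under 0.05, 11 (39.3%) were lower and 0 were higher, where 10% of all genes were lower and 8.50% higher. In 4 members (Hmgcs1, Fdps, Pmvk and Sc5d) every FEN-HFD mouse lay below every HFD mouse, and in 0 above, where the groups were apart downwards for 6.80% of all genes and upwards for 6.00%. The number called depended on the tool. DESeq2 called 5 lower (Acat2, Fdps, Pmvk, Aacs and Sc5d) and limma-voom 4 (Acat2, Fdps, Aacs and Sc5d), and neither called 1 higher.

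Leaving out single mice moved these counts. Without HFD mouse 28, 0 members were called, 7 were lower and 1 higher at an unadjusted p under 0.05, and the median log2 fold change of the 28 was -0.20 in place of -0.65. Calls were gained without HFD mouse 45 (Acat2 and Aacs) and without FEN-HFD mouse 29 (Aacs). Leaving out mice 28 and 29 together, an alternative chosen after seeing the data, gave a median of -0.21 and 3 members called lower, Fdps, Pmvk and Aacs.

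Among the enzymes from acetyl-CoA to the isoprenyl diphosphates, 6 of 8 were lower at an unadjusted p under 0.05, and values below are in the order of the mouse numbers given above. Acat2, the cytosolic thiolase that joins 2 molecules of acetyl-CoA, had 76.9, 99.9, 63.2 and 52.7 CPM in the HFD mice and 41.1, 47.6, 53.1 and 36.6 CPM in the FEN-HFD mice at 20 weeks. The groups overlapped only between HFD mouse 45 and FEN-HFD mouse 24 (log2 fold change -0.71 ± 0.19 (SE), adjusted p = 0.0952 by edgeR). Aacs, which activates acetoacetate in the cytosol, had the smallest p of the members, with 237, 289.5, 246 and 163 CPM on the HFD and 129, 123, 115 and 172 CPM on FEN-HFD. FEN-HFD mouse 29 was the only FEN-HFD mouse to reach into the HFD range (log2 fold change -0.80 ± 0.19 (SE), adjusted p = 0.0657). Hmgcs1, the HMG-CoA synthase of the cytosol, had 343, 696, 156 and 174 CPM in the HFD mice and 136, 139, 143 and 142 CPM in the FEN-HFD mice. Here the groups did not overlap, the 4 FEN-HFD mice were nearly equal, and the HFD mice spread over 4.47-fold (log2 fold change -1.29 ± 0.44 (SE), adjusted p = 0.167).

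Pmvk, the phosphomevalonate kinase, had 32.3, 59.1, 25.6 and 26.2 CPM on the HFD and 17, 19.8, 19.7 and 22.2 CPM on FEN-HFD, again without overlap (log2 fold change -0.87 ± 0.26 (SE), adjusted p = 0.132 by edgeR). Mvd, the decarboxylase that makes isopentenyl diphosphate, had the largest estimate of the 28, a log2 fold change of -1.54 ± 0.59 (SE) with an adjusted p of 0.219. Its HFD values were 14.5, 34.0, 5.47 and 6.26 CPM, and the lower 2 of them lay within the FEN-HFD range of 3.52 to 7.70 CPM. Fdps, the farnesyl diphosphate synthase, had 133, 284, 94.2 and 95.7 CPM on the HFD and 54.2, 62.6, 54.9 and 75.0 CPM on FEN-HFD. All FEN-HFD mice were below all HFD mice, and mouse 28 was the highest (log2 fold change -1.30 ± 0.35 (SE), adjusted p = 0.0967 by edgeR). The other 2 genes of this stretch did not pass at an unadjusted p. Idi1, the isomerase, had 19.5 ± 12.1 CPM (SD, n = 4) on the HFD and 12.1 ± 1.59 CPM (SD, n = 4) on FEN-HFD (log2 fold change -0.70), and Mvk, the mevalonate kinase, 14.2 ± 5.85 CPM (SD, n = 4) and 14.5 ± 2.62 CPM (SD, n = 4), with a log2 fold change of 0.02.

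Squalene and lanosterol are made by Fdft1, Sqle and Lss in turn. Sqle, the squalene epoxidase, had 17.8, 86.5, 11.9 and 12.8 CPM in the HFD mice and 16.4, 15.9, 11.8 and 39.6 CPM in the FEN-HFD mice at 20 weeks. Mouse 28 on the HFD and mouse 29 on FEN-HFD stood far above the other 3 mice of their groups, and the remaining mice overlapped (log2 fold change -0.66 ± 0.73 (SE), adjusted p = 0.674 by edgeR). Without mouse 28 the estimate for Sqle turned to 0.53. Fdft1, the squalene synthase, had a log2 fold change of -0.64, and Lss, the lanosterol synthase, one of -0.73, and both passed at an unadjusted p under 0.05. Among the 8 genes from lanosterol to cholesterol, Cyp51, the lanosterol demethylase (-0.75), and Sc5d (-0.81) were lower at that p. Sc5d had 595, 712, 365 and 375 CPM on the HFD and 297, 296, 305 and 267 CPM on FEN-HFD. These groups did not overlap, although the gap between HFD mouse 33 and FEN-HFD mouse 24 was smaller than the spread of the HFD mice (adjusted p = 0.0825 by edgeR).

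The other 6 of the late genes had log2 fold changes of -0.65 for Dhcr7, which makes cholesterol from its last precursor, -0.49 for Nsdhl and -0.38 for Msmo1, which take the methyl groups off the ring, 0.02 for Lbr and 0.07 for Tm7sf2, the sterol reductases, and 0.13 for Ebp. None of these passed at an unadjusted p under 0.05. The isoprenoid branch had log2 fold changes of 0.20 for Ggps1 and of -0.21 and -0.05 for Nus1 and Dhdds, the subunits of the enzyme that makes dolichol precursors. For sterol transport, Stard4, a cytosolic sterol carrier, was lower at an unadjusted p under 0.05 (log2 fold change -0.31), and Tmem97, a membrane protein that binds sterols, had a log2 fold change of -0.25.

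SREBP2 and its control genes showed no call. Srebf2 had 15.4, 19.7, 15.1 and 14.4 CPM in the HFD mice and 13.5, 15.6, 11.9 and 22.6 CPM in the FEN-HFD mice at 20 weeks. The groups overlapped throughout, and the highest value was that of mouse 29 (log2 fold change -0.04 ± 0.19 (SE), adjusted p = 0.929 by edgeR). Scap, the escort of SREBP2, had 64.0, 71.7, 108 and 88.2 CPM and 67.9, 90.5, 78.7 and 94.6 CPM. The groups overlapped with nearly equal means, at 82.9 ± 19.3 CPM (SD, n = 4) on the HFD and 82.9 ± 12 CPM (SD, n = 4) on FEN-HFD. Insig1 had 541, 483, 167 and 204 CPM on the HFD and 213, 216, 170.3 and 206 CPM on FEN-HFD. HFD mice 25 and 28 had far higher levels than mice 33 and 45, which lay at the level of the FEN-HFD mice (log2 fold change -0.79 ± 0.36 (SE), adjusted p = 0.286 by edgeR).

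Insig2 had 292, 268, 204 and 184 CPM on the HFD and 115, 193, 202 and 46.6 CPM on FEN-HFD at 20 weeks. The lowest value was that of mouse 29, and without it the log2 fold change was -0.48 in place of -0.77 ± 0.40 (SE; adjusted p = 0.344 with all mice and 0.272 without it, by edgeR).

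**Figure D3:**
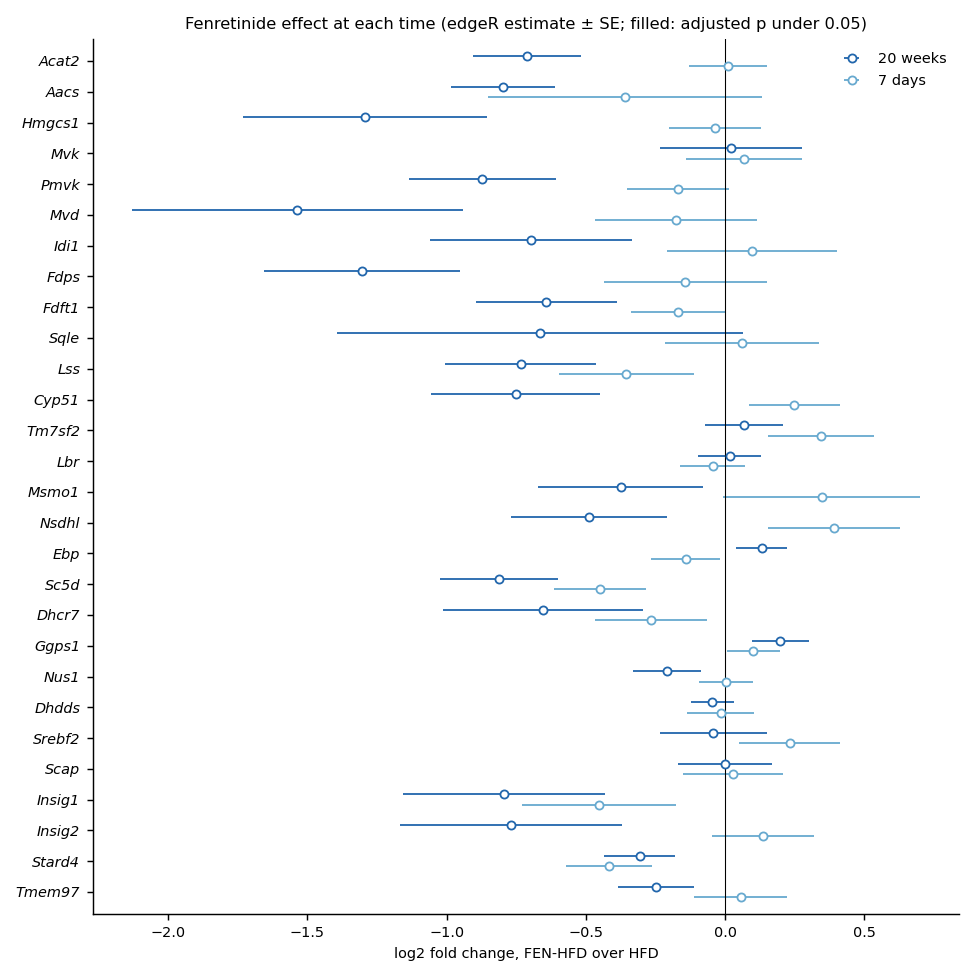
Log2 fold change of FEN-HFD over HFD (x axis) with its SE for each of the 28 genes at 20 weeks and at 7 days, from edgeR; a filled point would mark an adjusted p under 0.05, and none is filled. At 20 weeks 23 of the 28 points lie left of 0, the farthest being Mvd at -1.54, and at 7 days 14 do.

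After 7 days the estimates for fenretinide lay on both sides of 0. No member passed the test by edgeR, DESeq2 or limma-voom or under any other alternative, where edgeR called 0.0988% of 13157 genes, all higher. Estimates were below 0 for 14 of 28, with a median log2 fold change of -0.01, the same as that of all genes tested. At an unadjusted p under 0.05, 2 of 28 were lower and 0 higher, where 2.45% of all genes were lower. They were Sc5d (log2 fold change -0.45 ± 0.16 SE, adjusted p = 0.777 by edgeR) and Stard4 (-0.42 ± 0.15 SE, adjusted p = 0.8), both among the 11 that were lower at that p at 20 weeks. In 0 members did the groups lie apart, where they lay apart downwards for 1.5% of all genes.

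Hmgcs1 had 95.0, 70.4, 88.0 and 92.9 CPM in the HFD mice and 114, 69.8, 68.2 and 85.1 CPM in the FEN-HFD mice at 7 days, a log2 fold change of -0.04 ± 0.16 (SE). Sqle had 9.94, 9.67, 11.6 and 15.8 CPM and 15.6, 6.03, 12.5 and 14.6 CPM, and neither group held a mouse as high as mouse 28 or mouse 29 at 20 weeks (0.06 ± 0.28 SE). Srebf2 was even in the HFD mice, with 12.9, 12, 12.7 and 11.4 CPM, and wider in the FEN-HFD mice, with 10.5, 11.9, 15.0 and 20.1 CPM (0.23 ± 0.18 SE). For each of these 3 genes the groups overlapped, and the adjusted p by edgeR rounded to 1.

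Scap had 124, 88.5, 120.2 and 94.3 CPM on the HFD and 72.6, 120.4, 116 and 125 CPM on FEN-HFD at 7 days, with mouse 61 the lowest (0.03 ± 0.18 SE on the log2 scale). Insig1 had 215, 147, 342 and 305 CPM and 169, 126, 226 and 216 CPM, and 2 of the 4 HFD mice lay above all FEN-HFD mice (-0.45 ± 0.28 SE). Insig2 had 131, 117, 69.7 and 103 CPM and 97.6, 140.5, 108 and 114 CPM (0.13 ± 0.18 SE). Both groups of Insig2 values lay below every HFD mouse at 20 weeks.

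Whether the effect of fenretinide differed between the times was tested as an interaction over all 16 libraries. No member passed, where 0.0299% of 13387 genes did, and none passed under any alternative. The estimate at 20 weeks minus that at 7 days was below 0 for 24 of 28 members, with a median of -0.38 on the log2 scale beside 0.02 for all genes. At an unadjusted p under 0.05, 5 members were lower (Acat2, Cyp51, Hmgcs1, Fdps and Nsdhl) and 0 higher, where 4.73% of all genes were lower. The differences were -1.25 ± 0.51 (SE) on the log2 scale for Hmgcs1, -1.16 ± 0.50 for Fdps, -1.0 ± 0.37 for Cyp51, -0.88 ± 0.40 for Nsdhl and -0.72 ± 0.26 for Acat2. Their adjusted p by edgeR ran from 0.426 for Acat2 to 0.569 for Nsdhl. Without HFD mouse 28 the difference for Hmgcs1 was -0.64 and the median of the 28 was -0.16.

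Of the control genes, Insig2 had a difference of -0.89 ± 0.48 (SE) on the log2 scale, Insig1 one of -0.34 ± 0.49, Srebf2 one of -0.27 ± 0.28 and Scap one of -0.02 ± 0.26. For Sqle it was -0.72 ± 0.85 with all mice and 0.48 without HFD mouse 28. Adjusted p by edgeR for these 5 genes ran from 0.627 for Insig2 to 0.991 for Scap.

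On the HFD alone 4 members, Acat2, Insig2, Fdps and Hmgcs1, rose between 7 days and 20 weeks. The mice at 20 weeks were not those at 7 days, and the labels do not say whether they came from separate cohorts. Time on the diet, age and any difference of cohort therefore cannot be told apart. Cell type markers moved in the same comparison. The macrophage markers summed to 394 to 461 CPM at 20 weeks and 496 to 1097 CPM at 7 days, without overlap, with Vsig4 and Clec4f called lower and 6 of 8 lower at an unadjusted p under 0.05. Among hepatocyte markers Cps1, Apoa1 and Fgb were called lower, and of the stellate cell markers Col1a1 was called higher. The part of these markers in the members' values was not tested. Of 28 members 4 were called higher (14.3%) and 0 lower, where 4.78% of 13255 genes were called higher and 2.73% lower. At an unadjusted p under 0.05, 13 of 28 (46.4%) were higher and 0 lower, where 13.3% of all genes were higher. The median log2 fold change of the 28 was 0.59 beside -0.01 for all genes. It was 0.28 without mouse 28 and 0.43 without mouse 143 of the 7-day group. In 9 members (Insig2, Idi1, Hmgcs1, Srebf2, Acat2, Fdps, Pmvk, Cyp51 and Nsdhl) every mouse at 20 weeks lay above every mouse at 7 days, where this held for 9.63% of all genes. DESeq2 called 12 higher and a fit of all 16 libraries 9, while the edgeR test against a 1.5-fold change called 0.

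Acat2 rose from 34.9, 26.3, 36.2 and 36.9 CPM in the HFD mice at 7 days to 76.9, 99.9, 63.2 and 52.7 CPM at 20 weeks. The groups did not overlap (log2 fold change 1.11 ± 0.20 (SE), adjusted p = 0.013 by edgeR). Insig2 rose from 131, 117, 69.7 and 103 CPM to 292, 268, 204 and 184 CPM, again without overlap, and here mouse 25 and not mouse 28 was the highest (log2 fold change 1.16 ± 0.22 (SE), adjusted p = 0.0148). These 2 genes passed whichever of the 8 mice was left out. Fdps rose from 38.2, 21.4, 48.1 and 53.9 CPM to 133, 284, 94.2 and 95.7 CPM (log2 fold change 1.90 ± 0.44 (SE), adjusted p = 0.0407), and Hmgcs1 from 95.0, 70.4, 88.0 and 92.9 CPM to 343, 696, 156 and 174 CPM (log2 fold change 1.98 ± 0.48 (SE), adjusted p = 0.0471). For both the groups were apart and the spread at 20 weeks was wide.

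The calls of Fdps and Hmgcs1 held without mouse 28, at log2 fold changes of 1.40 (adjusted p = 0.0465 by edgeR) and 1.36 (adjusted p = 0.0366), and without mouse 33 or mouse 45. They were lost without mouse 25 (adjusted p = 0.0856 and 0.104) and without mouse 142 (0.107 and 0.106), mouse 143 (0.0767 and 0.106), mouse 144 (0.0824 and 0.105) or mouse 146 (0.0639 and 0.0921).

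The remaining members did not pass by edgeR. Mvd had 2.07 to 5.62 CPM at 7 days and 5.47 to 34.0 CPM at 20 weeks on the HFD, the largest estimate of the 28 in this comparison (log2 fold change 1.99 ± 0.63 SE, adjusted p = 0.102). Srebf2 had 11.4 to 12.9 CPM at 7 days and 14.4 to 19.7 CPM at 20 weeks, a difference that was small but without overlap (log2 fold change 0.39 ± 0.11 (SE), adjusted p = 0.0724). For Sqle the log2 fold change was 1.46 ± 0.70 (SE), and it was 0.26 without mouse 28. Insig1, unlike Insig2, overlapped between the times (log2 fold change 0.46 ± 0.44 (SE), adjusted p = 0.54), and Scap had an estimate below 0 (log2 fold change -0.38 ± 0.17 (SE), adjusted p = 0.199). The other estimates, in log2, were 1.30 for Idi1, 1.11 for Nsdhl, 1.10 for Pmvk, 1.0 for Cyp51 and 0.93 for Aacs, then 0.74 for Msmo1, 0.70 for Fdft1, 0.60 for Dhcr7, 0.59 for Lss, 0.48 for Tmem97, 0.40 for Sc5d and 0.31 for Tm7sf2, and between -0.20 and 0.23 for Ggps1, Lbr, Dhdds, Stard4, Ebp, Nus1 and Mvk.

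**Figure D4:**
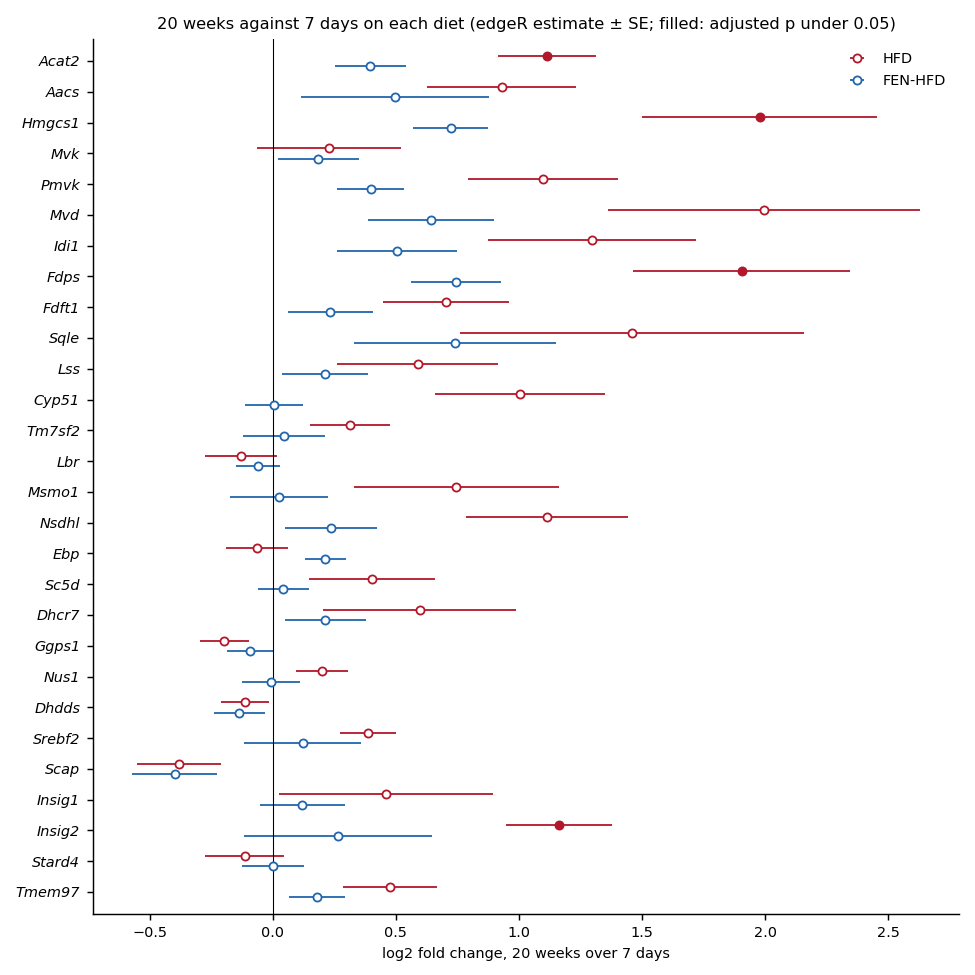
Log2 fold change of 20 weeks over 7 days (x axis) with its SE for each of the 28 genes on the HFD and on FEN-HFD, from edgeR, with filled points at an adjusted p under 0.05. The 4 filled points, all on the HFD, are Acat2 (1.11), Insig2 (1.16), Fdps (1.90) and Hmgcs1 (1.98).

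On FEN-HFD no member passed between the times by edgeR, where 1.18% of 12949 genes were called in either direction. At an unadjusted p under 0.05, 6 of 28 were higher at 20 weeks (Hmgcs1, Acat2, Fdps, Pmvk, Mvd and Ebp), where 6.03% of all genes were. At that p 1 of 28 (3.57%), Scap, was lower, where 3.63% of all genes were. Hmgcs1 was next to the threshold, with a log2 fold change of 0.72 ± 0.15 (SE), an adjusted p of 0.0531 and no overlap between the groups. It was called without FEN-HFD mouse 29 (adjusted p = 0.0362 by edgeR) and without FEN-HFD mouse 61 of the 7-day group (adjusted p = 0.00661). DESeq2 and limma-voom called both Hmgcs1 and Fdps higher, with adjusted p values of 0.00923 by DESeq2 and 0.0491 by limma-voom for Fdps. The median log2 fold change of the 28 was 0.20 beside 0.01 for all genes. This comparison shares its 20-week mice with the fenretinide comparison above, and the HFD one shares its 20-week mice with it likewise, so that the values are not independent.

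The HFD mice at 20 weeks differed among themselves in these genes more than in most. The highest mouse had a median of 2.06-fold the level of the lowest over the 28 members beside 1.30-fold over all genes tested, and 14 of 28 members (50%) spread over more than 2-fold, as 12.9% of all genes did. On FEN-HFD at 20 weeks the median was 1.35-fold for the members beside 1.41-fold for all genes. Of the 28 members 3 (10.7%) spread over more than 2-fold, as 19.1% of all genes did. At 7 days the medians for the members were 1.75-fold on the HFD and 1.62-fold on FEN-HFD, beside 1.35-fold and 1.32-fold. The narrowest member on FEN-HFD at 20 weeks was Hmgcs1, at 1.05-fold, and among the widest on the HFD were Sqle at 7.28-fold and Mvd at 6.22-fold. In the isoprenoid branch Nus1 spread over 1.41-fold on FEN-HFD at 20 weeks, and Dhdds spread over 1.07-fold on the HFD at 20 weeks.

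Mouse 28 was the highest HFD mouse at 20 weeks for 19 of the 28 members, as it was for 29.0% of all genes tested. Mouse 33 was the lowest for 16, as it was for 26.6% of all genes. Mice 25 and 28 both lay above mice 33 and 45 for 21 of 28 members (75%), as for 24.2% of all genes. They lay below both for 3 members (10.7%), as for 26.5% of all genes. These counts describe mice that were singled out after their values were seen. The summed level of the 18 enzymes on the way from acetyl-CoA to cholesterol (all of the first 3 roles but Aacs) was 1876 CPM in mouse 25, 3034 CPM in mouse 28, 1303 CPM in mouse 33 and 1335 CPM in mouse 45. In the FEN-HFD mice at 20 weeks it ran from 1111 to 1215 CPM, below all 4 HFD mice. At 7 days it ran from 774 to 1267 CPM on the HFD and from 834 to 1082 CPM on FEN-HFD. Such a sum rests on the most abundant enzymes. In mouse 28, Sc5d and Hmgcs1 had 712 and 696 CPM of it. Both are among the only 4 members whose groups did not overlap between the diets at 20 weeks. Outside the members, Fasn, the fatty acid synthase, named here after its values were seen, had 1611 and 1477 CPM in mice 25 and 28 and 465 and 535 CPM in mice 33 and 45. The total counts of mice 25 and 28 were 24799871 and 29075337, and those of mice 33 and 45 were 30810144 and 23607063. Their Rn45s shares were 0.498% and 0.572% against 0.633% and 0.928%, and their hepatocyte marker sums were 78725 and 71045 CPM against 82263 and 73310 CPM. Marker sums of 2 other cell types were higher in mice 25 and 28, at 70.2 and 159 CPM against 47.4 and 50.04 CPM for the 6 cholangiocyte markers and at 818 and 906 CPM against 567 and 758 CPM for the 8 stellate cell markers. The part of these values in the split was not tested.

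The members did not all follow the split. Scap was lower in mice 25 and 28 than in mice 33 and 45, as was Ebp, and Tm7sf2 was lowest in mouse 25. Mvk was high in mouse 28 alone. Sqle followed the split in order, but it was far higher in mouse 28 than in mouse 25. Insig1 and Insig2 followed the split with mouse 25 the highest. At 7 days mouse 143 was the lowest HFD mouse for 23 of 28 members, as it was for 29.9% of all genes tested, and had 774 CPM over the 18 enzymes. Its macrophage markers summed to 1097 CPM, where the other HFD mice at 7 days had 496 to 580 CPM. Its hepatocyte markers summed to 68875 CPM, where the others had 83544 to 87325 CPM. The part of these values in its low levels was not tested. Without mouse 143 the 7-day comparison of the diets had 6 members lower at an unadjusted p under 0.05 in place of 2, a median log2 fold change of -0.09 and 0 calls. In mouse 29, the library that stood apart, 15 of 28 members were the highest and 9 the lowest of the FEN-HFD mice at 20 weeks, where it was highest for 38.5% and lowest for 39.3% of all genes.

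**Figure D5:**
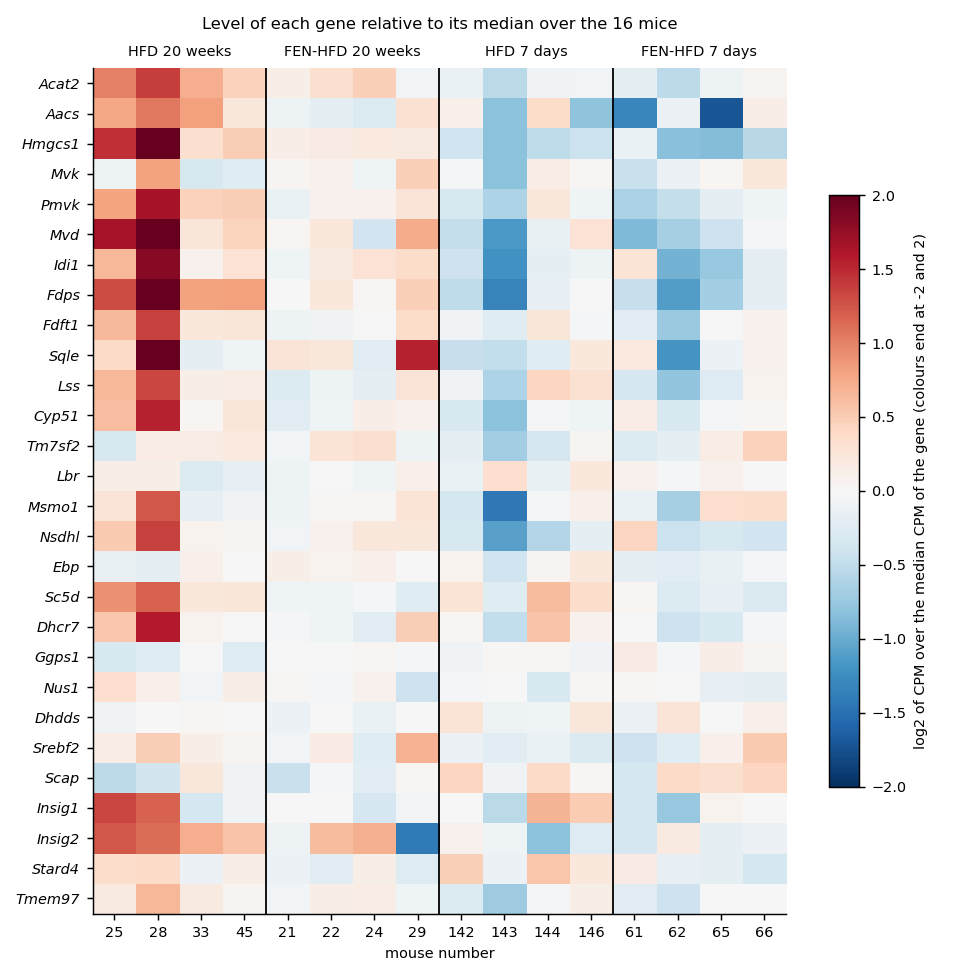
Each cell is the log2 ratio of a gene's level in 1 mouse to its median over the 16 mice, for the 28 genes (rows, by role) and the mice by group (columns), with colours that end at -2 and 2. The red columns are mice 25 and 28 of the HFD group at 20 weeks, whose enzyme sums were 1876 and 3034 CPM, and the bluest HFD column at 7 days is mouse 143 at 774 CPM.

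Other genes of the pathway, from lists drawn up by function, were read beside the members. Of 12 other sterol synthesis genes tested, 2 were called lower on FEN-HFD at 20 weeks and 0 higher. Their median was -0.47 on the log2 scale, and 6 were lower and 0 higher at an unadjusted p under 0.05, beside the same shares of all genes as for the members. Both called genes belong to the cytochrome b5 system, and Cyb5a, the other cytochrome b5 of the list, was not called. Cyb5b, an outer mitochondrial cytochrome b5, fell from 553 ± 51.5 to 321 ± 67.2 CPM (SD, 4 mice each; -0.78 ± 0.16 SE in log2, adjusted p = 0.0409 by edgeR), and Cyb5r3, the cytochrome b5 reductase, fell from 378 ± 41.9 to 249 ± 32.4 CPM (SD, 4 mice each; -0.60 ± 0.13 SE in log2, adjusted p = 0.0436 by edgeR). At 7 days 0 of 12 were called. On the HFD, 3 of 12 were called higher at 20 weeks than at 7 days and 0 lower, where 4.78% of all genes were called higher and 2.73% lower. Among the 3 were Cyb5b (log2 fold change 0.82, adjusted p = 0.00647 by edgeR) and Hsd17b7, the sterone reductase, which rose from 40.5 ± 9.20 to 76.0 ± 21.9 CPM (SD, 4 mice each; 0.90 ± 0.23 SE in log2, adjusted p = 0.0478 by edgeR).

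Of 15 other SREBP targets tested, 2 were called lower on FEN-HFD at 20 weeks and 0 higher. The median was -0.75 on the log2 scale, and 7 were lower and 1 higher at an unadjusted p under 0.05, beside 10% and 8.50% of all genes. The called genes were Fads1, a desaturase of polyunsaturated fatty acids, with a log2 fold change of -1.20 ± 0.15 (SE) and an adjusted p of 0.00657 by edgeR, and Fads2, the desaturase beside it in the pathway, at -1.65 ± 0.23 (SE) and 0.0104. At 7 days 0 of 15 were called and 6 were lower at an unadjusted p under 0.05, where 2.45% of all genes were lower, with a median of -0.22. Between the times Ebpl, a protein like Ebp, was called higher at 20 weeks on the HFD (0.50 ± 0.13 SE in log2, adjusted p = 0.04 by edgeR), and on FEN-HFD Ebpl and Pnpla3, a lipid droplet protein, were. That is 1 of 15 on the HFD, where 4.78% of all genes were called higher, and 2 of 15 on FEN-HFD, where 0.849% were. The 14 genes of SREBP processing and of sterol-dependent degradation tested had no call in any comparison and a median log2 fold change of -0.07 for fenretinide at 20 weeks. For so few genes the absence of calls says little, as 1.86% of all genes were called for fenretinide at 20 weeks.

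Of 14 genes of LXR and sterol export, 0 were called for fenretinide at either time. At 20 weeks 1 was higher and 3 lower at an unadjusted p under 0.05 (median log2 fold change 0.11), beside 8.50% and 10% of all genes. With 1.09% of all genes called lower and 0.769% higher at 20 weeks, 0 calls in 14 genes says little, here and in the next list. Between the times on the HFD, 4.78% of all genes were called higher and 2.73% lower. On the HFD, Scarb1, the HDL receptor, fell from 137 ± 10.6 to 90.8 ± 15.5 CPM (SD, 4 mice each; -0.61 ± 0.12 SE in log2, adjusted p = 0.0191 by edgeR) between 7 days and 20 weeks, and Abcg5, a subunit of the canalicular sterol pump, fell from 137 ± 16.3 to 99.6 ± 14.6 CPM (SD, 4 mice each; -0.48 ± 0.12 SE in log2, adjusted p = 0.0477 by edgeR). Pltp, the phospholipid transfer protein, rose from 21.8 ± 1.92 to 57.5 ± 20.3 CPM (SD, 4 mice each; 1.39 ± 0.22 SE in log2, adjusted p = 0.0086 by edgeR). Of 14 genes that use isoprenoids for prenylation, ubiquinone or dolichol, 0 were called for fenretinide at either time, with a median log2 fold change of -0.01 at 20 weeks, and Icmt, which methylates prenylated proteins, was called higher on the HFD at 20 weeks (log2 fold change 0.35 ± 0.08 SE, adjusted p = 0.0274 by edgeR).

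In the GENCODE M21 annotation of GRCm38, which is mm10, the 4 members called between the times lie at Acat2 (chromosome 17, 12942890 to 12960747), Insig2 (chromosome 1, 121304353 to 121332589), Fdps (chromosome 3, 89093588 to 89101959) and Hmgcs1 (chromosome 13, 119690379 to 119708260), and the largest fenretinide estimate belongs to Mvd (chromosome 8, 122433601 to 122443422). Exons of 4 members overlap exons of another gene in the table: Cyp51 with Akap9 over 166 bases, Fdft1 with Ctsb over 774 bases and Lss with 4930483K19Rik over 381 bases, all on the opposite strand, and Tm7sf2 with Vps51 over 14 bases on the same strand. The strand setting of the counting is not given in the sources used here, so that reads in these stretches cannot be assigned with certainty.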

How the data were processed

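The authors deposited unnormalized read counts for each gene symbol. Ribosomal RNA was depleted, and the submitters' processing notes name mm10, STAR 2.0 and DESeq2 1.6. The counting program, its annotation and its strand setting are not given in the sources used here, and the kit named in the labels is stranded while the one in the paper's methods is not named as such. Groups and mouse numbers came from the labels. Nothing in the labels ties mice to cages or days.

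All genes that passed filterByExpr entered the fits, made with edgeR 4.0.16 in R 4.3.3 (TMM factors, glmQLFit and glmQLFTest with robust=TRUE, Benjamini-Hochberg adjustment, threshold 0.05), in the 8 libraries of each pair of groups or, for the interaction, in all 16. SE is the absolute log2 fold change over the root of F. Scripts were tested on simulated data. The alternatives tried were limma-voom (limma 3.58.1, quality weights), DESeq2 1.42.0, RLE and upper-quartile factors, no filter beyond 1 count, at least 10 counts in every library, a test against a 1.5-fold change, removal of Rn45s and Lars2, all 16 libraries in 1 fit and each mouse left out, and, chosen after seeing the data, leaving out mice 28 and 29 together. Levels are CPM with TMM factors over the 16 libraries, per kb of GENCODE M21 exons where stated. Promoter windows are those of RefSeq (GRCm38.p6). All 28 members passed filterByExpr in each comparison.

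The members, the other lists and the tests were chosen with earlier results of these data known. Full values are given for members called for fenretinide or the interaction (there were 0) and for Srebf2, Scap, Insig1, Insig2, Hmgcs1 and Sqle. Those of the other members were added after their values were seen. Up to 3 called genes per list are named by smallest p, and Fasn was named after its values were seen.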

Additional observations from a re-analysis of the deposited data

Results flagged for a closer look

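Single mice lay far from the other 3 of their group in 7 of 112 sets of values (28 genes in 4 groups) by Dixon's test at 95%, and chance alone gives about 1 in 20. Of the 7 sets, 3 were high values of mouse 28 on the HFD at 20 weeks. Sqle in this mouse had 86.5 CPM, where the others of its group had 11.9 to 17.8 CPM. Mvk had 22.9 CPM, where the others of its group had 10.5 to 12.3 CPM. Tmem97 had 104 CPM, where the others of its group had 68.4 to 74.4 CPM. In the same group Tm7sf2 was low in mouse 25, at 56.8 CPM, where the others of its group had 78.2 to 81.0 CPM, and Ggps1 was high in mouse 33, at 11.2 CPM, where the others of its group had 9.02 to 9.30 CPM. Sqle was also high in mouse 29 on FEN-HFD at 20 weeks, at 39.6 CPM, where the others of its group had 11.8 to 16.4 CPM, and this is the library with most of its counts on Rn45s. Nsdhl was high in mouse 61 on FEN-HFD at 7 days, at 27.3 CPM, where the others of its group had 15.0 to 16.3 CPM. No member's fenretinide effect passed the test for a difference between the times, and in none did all mice differ one way at 20 weeks and the other way at 7 days.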

How the results depend on the processing

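With 4 mice per group, the counts of members called moved with the tool and with single mice, and for fenretinide no alternative called a member higher. For FEN-HFD against HFD at 20 weeks the members called lower numbered 0 by edgeR, 5 by DESeq2, 4 by limma-voom, 3 with all 16 libraries in 1 fit and 3 without HFD mouse 28 and FEN-HFD mouse 29, and with single mice left out from 0 to 2. For HFD at 20 weeks against 7 days the members called higher numbered 4, and were 12 by DESeq2, 9 with all 16 libraries in 1 fit, 2 with no filter on low counts, 0 in the test for a change over 1.5-fold, and 2 to 4 with single mice left out. For FEN-HFD between the times they numbered 0, and were 2 by DESeq2, 2 by limma-voom (with 1, Scap, lower), 1 with no filter, and 0 to 1 with single mice left out. The 7-day comparison and the interaction kept 0 members called throughout.

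The values recomputed under each alternative were those of all 28 members for fenretinide at 20 weeks and for HFD between the times, and of the main named members in the other comparisons (8 at 7 days, 10 for the interaction and 2 for FEN-HFD between the times). Of these 1400 log2 fold changes, 1296 kept their sign and side of the threshold, 38 gained a call, 16 lost one and 50 changed sign, none of them from a called value. Among them, the estimates that changed sign when 1 mouse was left out, with their ranges, were for fenretinide at 20 weeks Sqle (-1.13 to 0.53), Msmo1 (-0.53 to 0.042), Mvk (-0.097 to 0.35), Srebf2 (-0.24 to 0.074), Scap (-0.11 to 0.16), Tm7sf2 (-0.038 to 0.14) and Lbr (-0.053 to 0.077). At 7 days they were Scap (-0.056 to 0.18), Insig2 (-0.017 to 0.25), Hmgcs1 (-0.21 to 0.050) and Sqle (-0.079 to 0.28). For HFD between the times they were Mvk (-0.11 to 0.35) and Ebp (-0.17 to 0.0075), and for the interaction Scap (-0.17 to 0.14) and Sqle (-1.20 to 0.48). Over all 28 members, leaving out 1 mouse changed the sign of 7 estimates at 20 weeks, 13 at 7 days, 2 for HFD and 7 for FEN-HFD between the times, and 6 for the interaction. Other sign changes in the values recomputed under each alternative were those of Scap at 20 weeks, from a value next to 0 to 0.0021 by DESeq2, 0.0084 by limma-voom, 0.0024 with RLE factors and 0.0061 with upper-quartile factors, of Sqle at 20 weeks to 0.058 without mice 28 and 29, and by limma-voom of Lbr at 20 weeks (-0.017) and Sqle at 7 days (-0.061). The cause of the changes that came with another tool, filter or scaling was not tested. No paired analysis was possible because no mouse number is shared between groups.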
